A study of Mus musculus with 13 samples.

Results

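Messenger RNA levels of 7 enzymes of the core pentose phosphate pathway were followed across mammary glands and mammary tumors of MMTV-HER2/Neu mice, with attention to Tkt, the gene for transketolase. The other 6 genes were chosen by membership of the pathway: H6pd, Pgls and Pgd of the oxidative branch, and Taldo1, Rpia and Rpe, which with Tkt make up the non-oxidative branch. Tkt itself was selected on the readout described here, because it had the smallest p-value of all genes when tumors that recurred under 17-DMAG and stavudine were compared with the other tumors. Its values and ranks in those comparisons are therefore given as a description. Where calls of Tkt there are counted among the alternatives, they are not read as a test. The other comparisons share libraries with those that chose Tkt, so its p-values there are not independent of the choice. All 7 genes were among the 24421 gene symbols of the count table, of which 20812 had a count in at least 1 library, and all 7 passed the filter on low counts.

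The libraries came from female 202Mul/J mice of the strain FVB/N-TgN (MMTV-HER2/neu), whose genotype is labelled wild type and which carry a rat HER2/Neu cDNA driven in the breast epithelium by the mouse mammary tumor virus promoter. There were 2 mammary glands of untreated mice, 3 primary untreated tumors, 3 primary tumors of mice drinking stavudine (primary STV), 3 tumors that regrew after 17-DMAG (recurrent DMAG) and 2 that regrew after 17-DMAG with stavudine (recurrent DMAG+STV). Stavudine (STV), a nucleoside inhibitor of reverse transcriptase, was given at 1 mg/mL in the water from before or from after the appearance of tumors, and which of these applied to a library is not in its label. The paper describes primary STV tumors as having developed in mice on stavudine, which leaves the start open for the recurrent DMAG+STV tumors. The HSP90 inhibitor 17-DMAG was injected into tumor-bearing mice at 20 mg/kg and was continued while the tumors regrew. Ages at collection are not in the labels, nor is the animal behind each replicate, so the p-values rest on the spread between these libraries.

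The pentose phosphate pathway branches off glycolysis at glucose 6-phosphate. Its oxidative branch makes NADPH, which is spent on fatty acid synthesis and on the reduction of glutathione and thioredoxin, and yields ribulose 5-phosphate. The non-oxidative branch is reversible and exchanges pentose phosphates, needed for nucleotides, with the glycolytic intermediates fructose 6-phosphate and glyceraldehyde 3-phosphate. In the oxidative branch PGLS hydrolyses the lactone and PGD makes the second NADPH, while H6PD carries out the first steps inside the endoplasmic reticulum. RPIA and RPE interconvert the pentose phosphates, and transketolase and transaldolase (Taldo1) move carbon units between sugars. In the mammary gland the pathway is known as a supplier of NADPH for milk fat.

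In GRCm38 Tkt lies on chromosome 14 from 30549131 to 30574724 on the plus strand and hosts Mir3076. Taldo1 lies on chromosome 7 from 141392160 to 141402976 on the plus strand. The 250 bases before the annotated start of each, read 5′ to 3′ on the gene's strand from RefSeq's promoter windows of GRCm38.p6, are shown because the counts of these genes are set against each other below, with capitals marking the GC box GGGCGG on either strand.
Tkt, chr14:30548881-30549130: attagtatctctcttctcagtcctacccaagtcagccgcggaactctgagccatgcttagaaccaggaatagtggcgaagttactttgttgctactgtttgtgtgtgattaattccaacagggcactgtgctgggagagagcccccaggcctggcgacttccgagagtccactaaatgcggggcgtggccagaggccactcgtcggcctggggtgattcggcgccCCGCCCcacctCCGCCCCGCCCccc
Taldo1, chr7:141391910-141392159: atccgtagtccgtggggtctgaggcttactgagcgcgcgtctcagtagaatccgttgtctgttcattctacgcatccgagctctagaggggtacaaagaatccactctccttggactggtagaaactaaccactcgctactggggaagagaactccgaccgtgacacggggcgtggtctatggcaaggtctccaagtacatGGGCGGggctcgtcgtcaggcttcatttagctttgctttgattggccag
The Tkt window held 3 GC boxes, next to its start, and the Taldo1 window held 1. GC boxes were present in 6 of the 8 windows of the members (Pgd has 2 windows) and in 32.7% of all 32851 windows. The antioxidant response element core TGACNNNGC, sought on both strands, was in no member's window and in 10.2% of all windows. The E-box CACGTG was likewise in none of them and in 6.02% of all windows, while CCAAT was found for Pgd, H6pd and Taldo1 and in 33.8% of all windows. These matches describe letters in the windows and no binding.

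The total counts ranged from 39921388 to 56887708 per library, and each member had between 726 and 23178 counts in every library. The near copies of Tkt were almost silent, with 4 to 54 counts for Tktl1 and 0 for Tktl2. Rpe overlaps Kansl1l on the opposite strand, and Pgls overlaps Fam129c on its own strand, so reads could be shared there. Levels are CPM, counts relative to the library's total after scaling by TMM factors, and levels of different genes are compared as CPM per kilobase of RefSeq exons (RPKM). Luminal markers were present in every library, with summed levels of 1258 to 2744 CPM. Both mammary gland libraries and recurrent DMAG replicate 1 stood apart from the rest. In gland replicate 1, T and B cell markers summed to 105.8 and 81.1 CPM, against at most 7.88 and 1.93 CPM in any other library. In gland replicate 2, 37.7% of counts came from 8 milk protein genes, against 3.16% in gland replicate 1, and its TMM factor was 0.493, against at least 0.999 elsewhere. In recurrent DMAG replicate 1 fibroblast and macrophage markers summed to 5642 and 589.7 CPM, the highest of all libraries.

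Per length, Taldo1 was the most abundant member in the tumors, with a median of 98.9 RPKM over 11 tumors, ahead of Tkt at 52.8 and Pgd at 48.3 RPKM. Rpe followed at 19.9 and Pgls at 17.4 RPKM, and Rpia and H6pd were lowest at 11.6 and 10.0 RPKM. Within the 9 tumors other than recurrent DMAG+STV, the level of Tkt was steady, with a coefficient of variation of 10.8% and a highest level 1.43 times the lowest. Its choice by a small p favours a small spread in the primary STV and recurrent DMAG tumors, so this steadiness is a description. Rpia varied by 7.44% over the same 9 tumors, and H6pd and Pgd varied by 29.6% and 23.8%. With the 2 recurrent DMAG+STV tumors included, the coefficient of variation of Tkt was 45.8% and the highest level was 3.23 times the lowest, the widest ratio among the 7 genes.

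Tkt was high in the glands and in the tumors that recurred under 17-DMAG with stavudine. The glands held 323 and 827 CPM. Primary untreated tumors held 189.6, 170.5 and 147 CPM, and primary STV tumors 132, 155 and 155 CPM. Recurrent DMAG tumors held 170.2, 161 and 181 CPM, within the range of the primary tumors. The 2 recurrent DMAG+STV tumors held 337 and 428 CPM and lay above every other tumor. In order of level, gland replicate 2 came first and recurrent DMAG+STV replicate 2 second, followed by the near neighbours recurrent DMAG+STV replicate 1 and gland replicate 1, after which came a gap down to the 9 other tumors. Among these, the primary untreated tumors overlapped both other groups, and each recurrent DMAG tumor was slightly above each primary STV tumor.

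**Figure D1:**
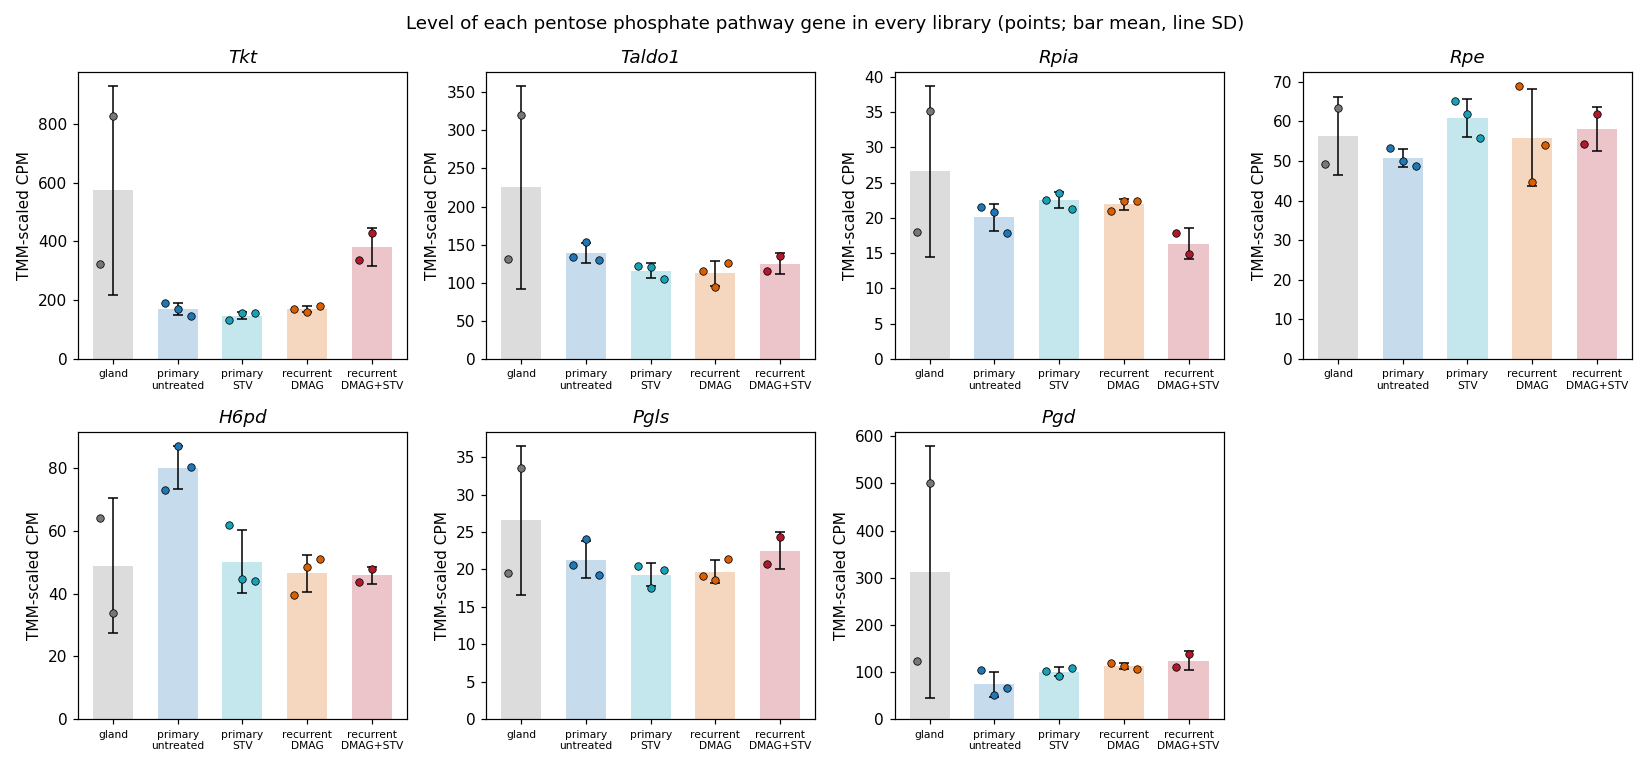
TMM-scaled CPM (vertical axes, from 0) of the 7 pathway genes in the 5 groups, with 1 point per library, bars for group means and lines for the SD. Tkt is at 337 and 428 CPM in the recurrent DMAG+STV tumors and between 132 and 189.6 CPM in the 9 other tumors, while gland replicate 2 is the highest point for Tkt, Taldo1, Rpia, Pgls and Pgd and the lowest for H6pd.

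As fitted with edgeR, Tkt was 2.60-fold higher in recurrent DMAG+STV than in primary STV tumors (log2 fold change 1.38, SE 0.15) and 2.25-fold higher than in recurrent DMAG tumors (log2 fold change 1.17, SE 0.15). It ranked first by p among 16870 genes in both comparisons, which share the recurrent DMAG+STV tumors, and this rank is why the gene is described. By size of the increase it ranked lower, 1204 in the first comparison and 647 in the second. These values are not read as a test, because they chose the gene. Leaving out recurrent DMAG+STV replicate 2, the tumor with the most Tkt, gave log2 fold changes of 1.19 and 0.98, and leaving out replicate 1 gave 1.53 and 1.32.

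Ratios of counts within a library do not depend on how libraries are scaled. There were 1.42, 1.11 and 1.13 Tkt counts for each Taldo1 count in the primary untreated tumors, 1.09, 1.28 and 1.49 in the primary STV tumors and 1.47, 1.70 and 1.43 in the recurrent DMAG tumors. The recurrent DMAG+STV tumors had 2.93 and 3.16, and the glands, at 2.47 and 2.59, were close behind. Thus both recurrent DMAG+STV tumors were above all other libraries in this ratio. The same libraries stood out in the share of Tkt among the summed RPKM of the 7 genes, which was 34.4% and 36.2% in recurrent DMAG+STV tumors, 31.4% and 31.3% in the glands, and 16.3% to 21.5% in the other tumors. Without Tkt, the non-oxidative branch summed to 123 and 141 RPKM in the recurrent DMAG+STV tumors, inside the range of 106 to 155 RPKM of the other tumors, and H6pd, Pgls and Pgd of the oxidative branch summed to 76.2 and 92.9 RPKM beside 61.7 to 79.5 RPKM.

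**Figure D2:**
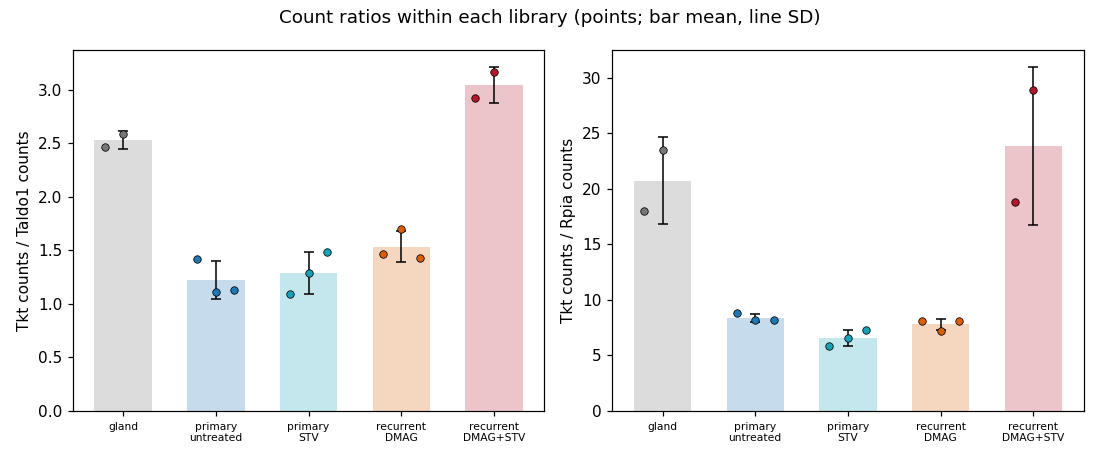
Counts of Tkt divided by counts of Taldo1 (left) and of Rpia (right) in each library of the 5 groups, with points for libraries, bars for means and lines for the SD. Both recurrent DMAG+STV tumors, at 2.93 and 3.16 Tkt counts per Taldo1 count, lie above the other tumors, at 1.09 to 1.70, and above the glands, at 2.47 and 2.59. Per Rpia count they are at 18.8 and 28.9, the other tumors at 5.87 to 8.82 and the glands at 18.0 and 23.5. In that ratio recurrent DMAG+STV replicate 1 lies below gland replicate 2.

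Recurrent DMAG+STV tumors were compared with primary STV tumors to ask what differed after recurrence in mice on stavudine. Beside Tkt, the member furthest from 0 was Rpia, the isomerase that makes ribose 5-phosphate. Rpia was at 17.9 and 14.8 CPM in the recurrent DMAG+STV tumors and at 22.6, 23.6 and 21.3 CPM in the primary STV tumors, with no overlap and in the direction opposite to Tkt. Its log2 fold change was -0.46 (SE 0.14), which did not pass the edgeR quasi-likelihood test (adjusted p = 0.370). Taldo1, at 115 and 135 CPM against 122, 121 and 104 CPM, differed by 0.12 on the log2 scale (SE 0.16), with an interval of 2 SE from -0.20 to 0.43. Pgd and Pgls were higher without overlap by 0.31 (SE 0.25) and 0.23 (SE 0.15) on the log2 scale, and H6pd and Rpe differed by -0.13 and -0.06. None of the 6 members other than Tkt was called by edgeR, as 0% of 16870 genes were. At an unadjusted p under 0.05 there was 1 of these 6 (Rpia), beside 10.1% of all genes, and 3 of 6 did not overlap (Pgd, Rpia and Pgls), beside 35.3% of all genes. DESeq2 called 318 genes, none of the 6 among them, and limma voom called 0.

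Recurrent DMAG+STV tumors were also compared with recurrent DMAG tumors, which asks about stavudine among recurrences, though not about stavudine alone. The paper reports that stavudine significantly delayed relapse while DMAG treatment continued. These groups can therefore also differ in time to relapse and in length of DMAG treatment, which the labels do not give. The part of these in the differences was not tested. Tkt and Rpia again lay apart, and the recurrent DMAG+STV tumors are the same 2 in both comparisons. Rpia was at 21.0, 22.4 and 22.4 CPM in the recurrent DMAG tumors and thus higher in every one of them, a difference of -0.42 on the log2 scale (SE 0.14, adjusted p = 0.493 in edgeR). The other 5 members lay between -0.01 for H6pd and 0.20 for Pgls on the log2 scale, and their values overlapped. Taldo1 differed by 0.16 (SE 0.16), with an interval of 2 SE from -0.15 to 0.48. Of the 6 members other than Tkt edgeR called none, as 0% of all genes, with 1 (Rpia) at an unadjusted p under 0.05, beside 7.84% of all genes, and the same 1 without overlap, beside 21.5%. DESeq2 called 258 genes, none of the 6 among them, and voom 0.

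Primary STV tumors were set against primary untreated tumors to ask what stavudine changed before 17-DMAG. H6pd, which feeds NADPH to the lumen of the endoplasmic reticulum, was at 61.9, 44.7 and 44.0 CPM with stavudine and at 73.1, 87.0 and 80.5 CPM without, so that the groups did not overlap. Its log2 fold change of -0.69 (SE 0.16) ranked 8th by p of 16870 genes and did not pass the adjustment (edgeR adjusted p = 0.9998, with 0.0847 in DESeq2 as the lowest of the alternatives). Tkt differed by -0.21 (SE 0.14, adjusted p = 0.9998), with overlapping values. Pgd was higher by 0.44 (SE 0.22) and Rpe by 0.25 (SE 0.16), Taldo1 was lower by -0.28 (SE 0.14), and Rpia and Pgls differed by 0.15 and -0.16. None of the members was called, as 0% of all genes. At an unadjusted p under 0.05 there was 1 of 7 (H6pd), beside 3.76%, and 3 of 7 did not overlap (Rpe, H6pd and Taldo1), beside 10.8%. DESeq2 called 17 genes and no member, and voom called 0.

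Recurrent DMAG tumors were compared with the same 3 primary untreated tumors, so this comparison and the previous one share their controls. H6pd was again low, at 39.6, 48.5 and 51.1 CPM, with a log2 fold change of -0.80 (SE 0.16) that ranked 3rd by p. It was not called by edgeR (adjusted p = 0.509) and was called by DESeq2 (adjusted p = 0.0143), over alternatives that ranged from 0.0143 to 0.841. Pgd was at 119.8, 112 and 107 CPM in the recurrent DMAG tumors and at 104, 51.7 and 65.1 CPM in the primary untreated tumors, higher by 0.60 on the log2 scale (SE 0.22, adjusted p = 0.509 in edgeR). Taldo1, at 116, 94.5 and 126 CPM against 133, 153 and 129.6 CPM, was lower by -0.32 (SE 0.14, adjusted p = 0.510 in edgeR). Tkt differed by -0.0023 (SE 0.14), with an interval of 2 SE from -0.28 to 0.27, and the remaining 3 genes differed by -0.13 to 0.13. Under edgeR 0 of 7 were called (0% of all genes), 3 of 7 had an unadjusted p under 0.05 (Pgd, H6pd and Taldo1, beside 9.69% of all genes), and the same 3 did not overlap, beside 15.1%. DESeq2 called 61 genes, H6pd alone among the members, and voom 0.

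Averaged over the water arms, recurrent minus primary tumors gave a log2 fold change of 0.69 for Tkt (SE 0.10), which ranked 4th by p and mixes a value near 0 without stavudine with a large one under it. H6pd was lower by -0.47 (SE 0.12, edgeR adjusted p = 0.287) and Pgd higher by 0.45 (SE 0.17, adjusted p = 0.326). The difference between the recurrence effect with and without stavudine can also include the later relapse under stavudine. That difference was 1.38 for Tkt (SE 0.20, rank 1 of 16870), which repeats the values that chose the gene. For H6pd it was 0.68 (SE 0.24, edgeR adjusted p = 0.568), for Rpia -0.56 (SE 0.19, adjusted p = 0.535) and for Taldo1 0.44 (SE 0.21, adjusted p = 0.654), and none of these passed. edgeR called 0% of genes in either. At an unadjusted p under 0.05 there were, of the 6 members other than Tkt, 2 in the average (Pgd and H6pd, beside 13.6% of all genes) and 2 in the interaction (H6pd and Rpia, beside 7.84%). DESeq2 called 401 and 185 genes, with H6pd (adjusted p = 0.0360) among the first and none of the 6 among the second, and voom called 0 in each.

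**Figure D3:**
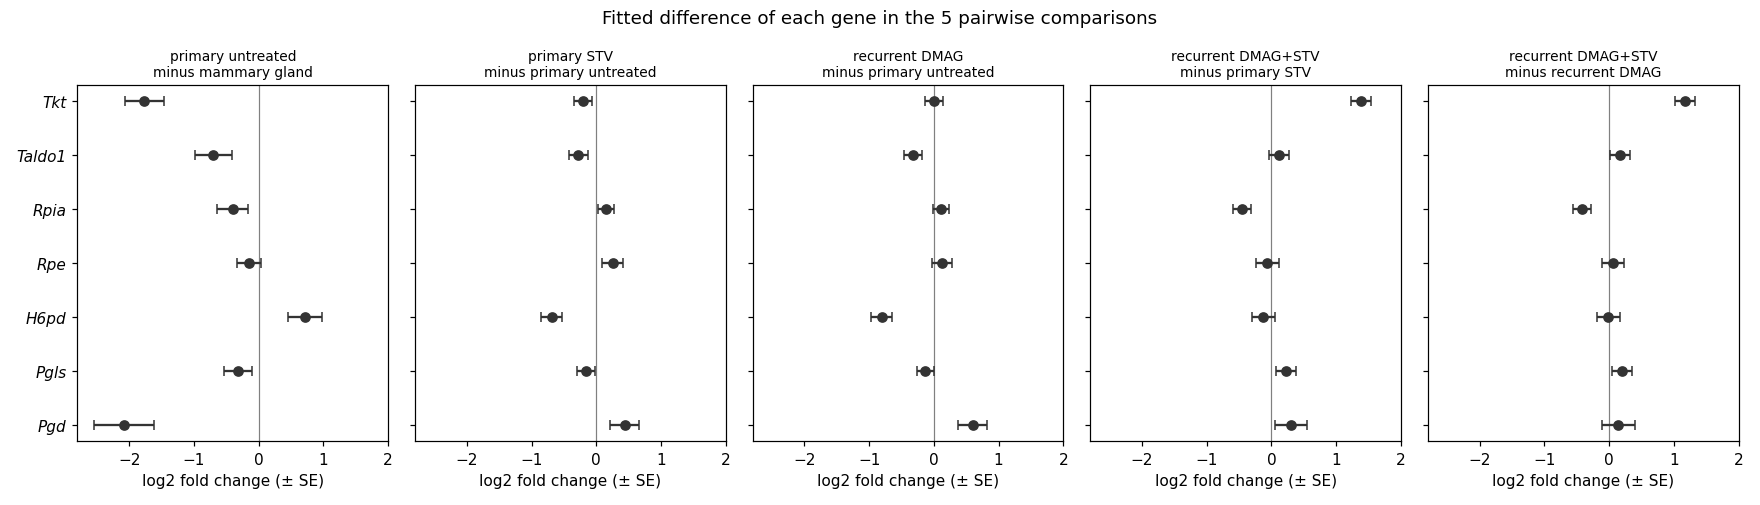
Fitted log2 fold change (horizontal axes) of the 7 genes in the 5 pairwise comparisons, with points for the estimate and lines for 1 SE on each side. Against the glands Tkt and Pgd are at -1.77 and -2.08, H6pd is low in both comparisons with primary untreated tumors at -0.69 and -0.80, and Tkt is alone beyond 1 in the comparisons with recurrent DMAG+STV tumors.

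Primary untreated tumors were compared with the glands to ask how tumor and tissue differed. Tkt and Pgd were lower in the tumors and passed the test, Tkt by -1.77 on the log2 scale (SE 0.30, edgeR adjusted p = 0.0358) and Pgd by -2.08 (SE 0.46, adjusted p = 0.0489). These were 2 of 7 members called, beside 2.11% of 17135 genes. The spread behind the Tkt test was estimated with the tumors whose values chose it, so its p is not independent of that choice. With the compared groups alone, the adjusted p in edgeR was 0.159 for Tkt and 0.206 for Pgd. H6pd was the one member higher in the tumors, by 0.71 (SE 0.26, adjusted p = 0.135), from 64.1 and 33.7 CPM in the glands. Taldo1 was lower by -0.70 (SE 0.29, adjusted p = 0.177), and Rpia, Pgls and Rpe by -0.40, -0.32 and -0.15. At an unadjusted p under 0.05 there were 4 of 7 (Tkt, Pgd, H6pd and Taldo1), beside 24.5% of all genes, and 3 of 7 did not overlap (Tkt, Pgd and H6pd), beside 39.2%. Gland replicate 2 weighed most on these calls: without it Tkt differed by -0.84 (adjusted p = 0.0645 in edgeR) and Pgd by -0.64 (adjusted p = 0.358) and no member was called, while without gland replicate 1 the values were -2.25 and -2.73 and 6 of 7 members were called. Of the other libraries, both calls stood without recurrent DMAG replicate 1, Tkt alone stood without either recurrent DMAG+STV tumor, and neither stood without any 1 of the rest. With library totals in place of TMM factors the glands held 363 and 407 CPM of Tkt, beside 158 to 201 CPM in the primary untreated tumors, the log2 fold change was -1.13 (adjusted p = 0.0733), and Rpia, Pgls and Rpe changed sign.

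Genes of fat synthesis, a major use of NADPH in milk production, were lower in the tumors along with Pgd and Tkt. In a list of fatty acid and sterol synthesis genes, 7 of 9 were lower in primary untreated tumors by edgeR's test and none higher: Acly, Acaca, Acacb, Fasn, Scd1, Elovl6 and Thrsp, with a median of -3.48 over the 9 genes beside -0.02 over all genes and with 2.11% of all genes called. The count fell to 3 of 9 without gland replicate 2 (median -2.21), without any 1 primary STV tumor, without recurrent DMAG replicate 2 or 3, or with library totals in place of TMM factors. Leaving out 1 of the primary untreated tumors gave 2 (replicate 1) or 0 (replicate 2 or 3), and it was also 0 with the compared groups alone or with a replicate block. Adipocyte markers moved with these genes (median -4.22). All 8 were lower at an unadjusted p under 0.05, beside 24.5% of all genes at that p, and none after adjustment. They summed to 857 and 1090 CPM in the glands and to 33.3 to 129.9 CPM in primary untreated tumors. Milk protein genes, 8 of 8 lower with 1 called (median -7.84), summed to 28062 and 764799 CPM against 6682 to 16952 CPM. Their part in the difference was not tested. Fasn, the fatty acid synthase, was at 3913 and 20606 CPM in the glands and at 1165, 456 and 368 CPM in the tumors (log2 fold change -4.21, SE 0.74, adjusted p = 0.0369). Acly, which makes cytosolic acetyl-CoA, was at 575 and 4299 CPM against 229.8, 265 and 237 CPM (-3.32, SE 0.62, adjusted p = 0.0393). Among 17 tested glycolysis genes 1 was called, Gpi1, whose product interconverts glucose 6-phosphate and fructose 6-phosphate and which was higher in the tumors, at 345, 502 and 373 CPM against 219 and 215 CPM (0.91, SE 0.18, adjusted p = 0.0427). No gene was called among 13 enzymes of pentose and PRPP metabolism outside the core, 12 other NADPH sources and NAD kinases or 13 redox and NRF2 target genes. The same held for 6 phagocyte NADPH oxidase subunits, 15 nucleotide synthesis genes and 7 regulators. In that order, 2, 3, 4, 4, 4 and 1 had an unadjusted p under 0.05 in edgeR, beside 24.5% of all genes.

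In the comparisons among tumors no gene of these lists was called by edgeR, as for all genes, so they are given by counts and examples with their medians beside those of all genes, 0.01 for recurrent DMAG+STV minus primary STV and -0.0047 for recurrent DMAG+STV minus recurrent DMAG. Of the 12 other NADPH sources, 10 were higher in recurrent DMAG+STV than in primary STV tumors (median 0.36) and 7 than in recurrent DMAG tumors (median 0.15). Me1, the cytosolic malic enzyme that makes NADPH, was at 477 and 576 CPM in the recurrent DMAG+STV tumors, at 302, 325 and 232 CPM in primary STV and at 252, 222 and 254 CPM in recurrent DMAG tumors. These values did not overlap, and its log2 fold changes were 0.88 (SE 0.47, edgeR adjusted p = 0.540) and 1.13 (SE 0.47, adjusted p = 0.609), but primary untreated replicate 2 was higher still at 907 CPM. Aldh1l2, a mitochondrial folate enzyme that makes NADPH, was at 31.4 and 21.4 CPM against 8.66, 11.1 and 16.1 CPM in primary STV tumors (1.15, SE 0.35, adjusted p = 0.375 in edgeR).

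Genes of redox defence were higher in 11 of 13 cases than in primary STV tumors and in 8 of 13 than in recurrent DMAG tumors, with medians of 0.28 and 0.12. Gsr, which reduces glutathione with NADPH, was at 43.5 and 31.5 CPM in recurrent DMAG+STV and at 25.8, 29.5 and 30.3 CPM in primary STV tumors (0.40, SE 0.15, adjusted p = 0.449 in edgeR). The thioredoxin gene Txn1 lay the other way, at 88.0 and 76.97 CPM in recurrent DMAG+STV against 104, 92.8 and 101 CPM in recurrent DMAG tumors (-0.26, SE 0.23). All 6 NADPH oxidase subunits were higher than in primary STV tumors (median 0.65) and 4 of 6 than in recurrent DMAG tumors (median 0.03). Of the glycolysis genes 13 of 17 were higher than in primary STV tumors and 8 than in recurrent DMAG tumors (medians 0.28 and -0.01). Pfkl, a phosphofructokinase, was at 586 and 488 CPM against 329.7, 371 and 385 CPM in recurrent DMAG tumors (0.58, SE 0.18, adjusted p = 0.473 in edgeR). Its isoform Pfkp was at 127 and 239 CPM against 66.8, 80.4 and 115 CPM in primary STV tumors (1.07, SE 0.30, adjusted p = 0.336 in edgeR).

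Among fatty acid and sterol genes, 7 of 9 were higher in both comparisons (medians 0.13 and 0.33). Thrsp, a lipogenic regulator, was at 74.3 and 308 CPM in the recurrent DMAG+STV tumors and at most at 50.03 CPM in the primary STV and recurrent DMAG tumors. Scd1, a fatty acid desaturase, was at 1370 and 879 CPM, below all 3 primary STV tumors at 1674, 1460.2 and 1462 CPM (-0.44, SE 0.32). The enzymes outside the core were higher in 9 and 11 of 13 cases (medians 0.16 and 0.13), and nucleotide synthesis genes, which use the ribose phosphate, in 10 and 13 of 15 (medians 0.06 and 0.10). Pgm2, from the list of enzymes outside the core, was at 45.3 and 68.4 CPM against 31.0, 35.6 and 37.8 CPM in primary STV tumors (0.71, SE 0.25, adjusted p = 0.441 in edgeR). Gmps, which makes GMP, was lower without overlap in both comparisons, by -0.20 (SE 0.16) and -0.29 (SE 0.16), and Ctps, a CTP synthase, was at 24.6 and 17.0 CPM against 42.2, 26.8 and 25.6 CPM in recurrent DMAG tumors (-0.60, SE 0.54). Regulators were higher in 5 and 3 of 7 cases (medians 0.30 and -0.12). Hif1a, the hypoxia factor, was at 147 and 228 CPM against 125, 114 and 138 CPM in primary STV tumors (0.58, SE 0.24, adjusted p = 0.466 in edgeR), and Myc was at 68.7 and 69.5 CPM against 77.2, 89.3 and 76.2 CPM in recurrent DMAG tumors (-0.22, SE 0.20). The same lists in the comparisons of primary STV and of recurrent DMAG with primary untreated tumors had medians between -0.43, for glycolysis, and 0.56, for the NADPH oxidase.

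Among the markers of cell state and cell type, proliferation and luminal sums lay lower in the tumors with high Tkt. Macrophage and fibroblast sums lay above those of every other tumor except recurrent DMAG replicate 1. No marker was called by edgeR in either comparison. All 10 proliferation markers were lower in recurrent DMAG+STV tumors than in primary STV and in recurrent DMAG tumors. In each comparison 9 had an unadjusted p under 0.05, beside 10.1% and 7.84% of all genes, and none passed after adjustment. Their sums were 443 and 211 CPM against 586 to 973 CPM in the other tumors. Mki67 was at 198 and 83.8 CPM in the recurrent DMAG+STV tumors and at 309 to 523 CPM elsewhere among the tumors. Luminal markers summed to 2061 and 1258 CPM in the recurrent DMAG+STV tumors and to 2089 to 2744 CPM in the other tumors. Against primary STV tumors 4 of the 6 were lower and 2 higher (median -0.27). Against recurrent DMAG tumors 5 were lower and 1 higher (median -0.71). Epcam was at 744 and 402 CPM against 874 to 1236 CPM. All 8 macrophage markers were higher than in primary STV tumors and 2 of 8 higher than in recurrent DMAG tumors, with sums of 305 and 273 CPM against 157 to 589.7 CPM. All 6 fibroblast markers were higher than in primary STV tumors (median 1.51), 2 of them at an unadjusted p under 0.05, beside 10.1% of all genes. All 6 were lower than in recurrent DMAG tumors (median -0.71), none at that p, beside 7.84% of all genes. Their sums were 1389 and 1819 CPM against 239 to 5642 CPM. Recurrent DMAG replicate 1 had the highest macrophage and fibroblast sums of any library with Tkt at 170.2 CPM, the median of the 11 tumors. Both recurrent DMAG+STV tumors came next among the tumors, above recurrent DMAG replicate 3 at 217 and 935 CPM.

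**Figure D4:**
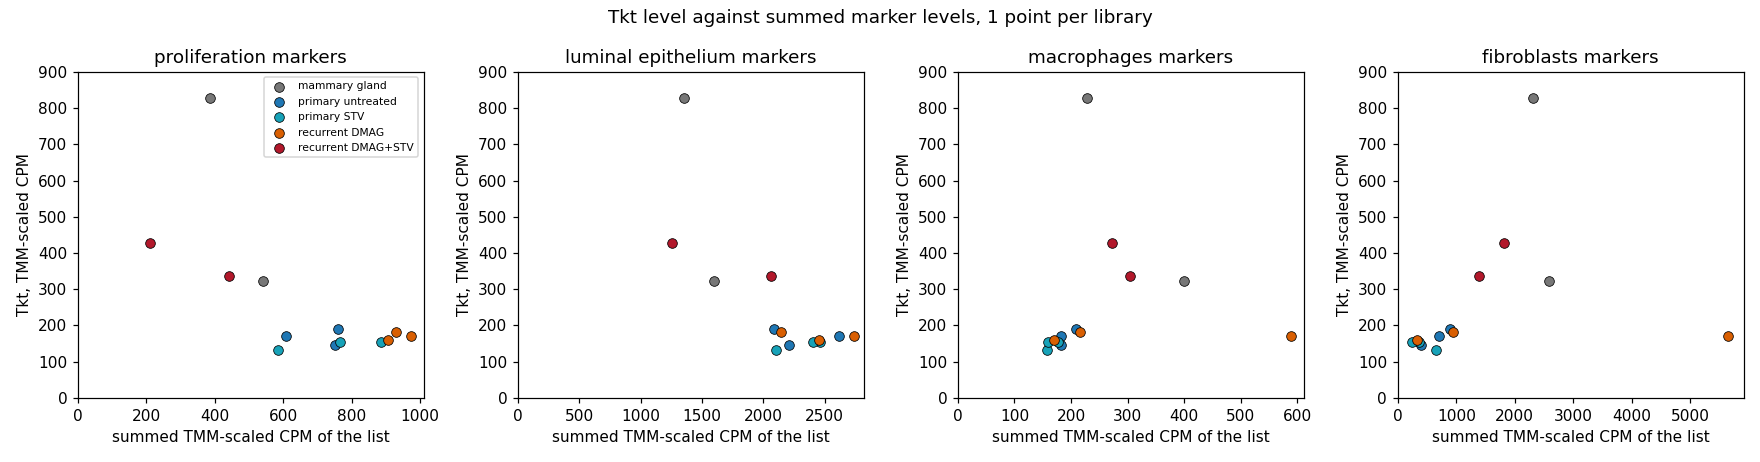
Tkt (vertical axes, TMM-scaled CPM) against the summed CPM of proliferation, luminal, macrophage and fibroblast markers (horizontal axes), with 1 point per library coloured by group. The recurrent DMAG+STV tumors have the lowest proliferation and luminal sums among the tumors. Their macrophage and fibroblast sums lie above those of every other tumor except recurrent DMAG replicate 1. That tumor is at 589.7 and 5642 CPM and has Tkt at 170.2 CPM.

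Neutrophil markers summed to 11.8 and 10.97 CPM in recurrent DMAG+STV tumors. They summed to 22.1 CPM in recurrent DMAG replicate 1 and to 2.70 to 4.47 CPM in the remaining tumors. Muscle markers summed to 24.4 and 1922 CPM against 5.37 to 1214 CPM, and adipocyte markers to 38.3 and 158 CPM against 7.82 to 133 CPM. Myoepithelial markers summed to 41.5 and 256 CPM against 15.2 to 154 CPM, endothelial markers to 77.6 and 131 CPM against 60.2 to 244 CPM, T cell markers to 7.88 and 3.45 CPM against 2.22 to 7.61 CPM, B cell markers to 0.665 and 0.877 CPM against 0.368 to 1.53 CPM and milk protein genes to 18775 and 4604 CPM against 6682 to 23368 CPM. The glands had more adipocyte (857 and 1090 CPM), fibroblast (2307 and 2577 CPM) and myoepithelial (267 and 855 CPM) marker RNA than any primary tumor. In primary untreated tumors edgeR called Myh11, Cnn1, Wap, Cd79a and Pdgfra lower and Rrm2 higher. Cd79a was at 27.6 CPM in gland replicate 1 and at 1.36 CPM in gland replicate 2, against 0.239, 0.550 and 0.261 CPM in the primary untreated tumors. In whole tissue, fewer cells of a type and less RNA per cell cannot be told apart, and the part of these cells in the level of Tkt was not tested.

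The genes whose log2 CPM followed Tkt most closely over the 11 tumors, among the 10169 genes that averaged 3 or more on that scale, were Tgm2 (Pearson r = 0.93, Spearman rho = 0.83), Chtf8 (0.92 and 0.85), Ppap2b (0.92 and 0.75), Acp5 (0.92 and 0.55) and Maged1 (0.92 and 0.66). The points fall into a cloud of 9 tumors and the 2 recurrent DMAG+STV tumors, so these values mostly describe which genes were also high there, as Tgm2 was at 236 and 421 CPM. Over the 9 other tumors the closest were Ppp1r16a (r = 0.87, rho = 0.93), Srl (0.85 and 0.80), the glycolytic Pkm (0.84 and 0.75), Myom1 (0.81 and 0.90) and Rxrb (0.81 and 0.88), and no gene was in both sets of 5. The other members did not rank near the top in either. Over the 11 tumors r was 0.56 for Pgls, 0.44 for Pgd, 0.19 for Taldo1, 0.11 for Rpe, -0.29 for H6pd and -0.80 for Rpia, and over the 9 tumors it was 0.32, 0.10, 0.25, -0.22, 0.02 and 0.09 in the same order. All points share the scaling of their library.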

How the data were processed

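RNA-seq of 13 libraries was analysed. The authors depleted ribosomal RNA from total RNA, made dUTP-stranded libraries, ran STAR against mm10 (GRCm38) and obtained counts per gene from featureCounts; the submitters' processing notes name Subread 1.6.2 and bcl2fastq 2.20. The deposited values are raw whole-number counts, and the strand and multimapper settings are not given in the sources used here.

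Genes were filtered with filterByExpr, scaled by TMM and tested with the quasi-likelihood test of edgeR 4.0.16 in R 4.3.3, with robust dispersions and Benjamini-Hochberg adjustment over all genes at 0.05. The comparison with the glands was fitted on all 13 libraries (17135 genes) and the others on the 11 tumors (16870 genes). RPKM used the exons of transcripts that GENCODE links to RefSeq. DESeq2 1.42.0, limma 3.58.1 (voom), other scalings and filters, a replicate block and leaving out each library were alternatives. The members and all gene lists were chosen with earlier results of these data known. Text names 7 members (another gene of the pathway and a marker are not reported here), each called gene of the lists, examples (at most 2 a list and comparison, those with the largest change among genes whose groups did not overlap), and the 5 genes most like Tkt. Promoter windows came from RefSeq. Intervals of 2 SE describe the uncertainty of a fitted difference between groups, judged from the spread between libraries.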

Additional observations from a re-analysis of the deposited data

Results flagged for a closer look

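The fitted change of Rpia with recurrence had opposite signs in the water arms, but only that under stavudine separated the groups. Without stavudine, all 3 recurrent DMAG tumors (21.0, 22.4 and 22.4 CPM) were above the mean of the primary untreated tumors (20.1 CPM), though not above each of them, since primary untreated replicate 1 was at 21.5 CPM and replicate 3 at 17.9 CPM, and the log2 fold change of 0.11 (SE 0.12, edgeR adjusted p = 0.732) did not pass. With stavudine both recurrent DMAG+STV tumors (17.9 and 14.8 CPM) were below the mean of the primary STV tumors (22.5 CPM). The difference between these changes was -0.565 on the log2 scale (SE 0.19), and edgeR's test of that difference did not pass (adjusted p = 0.535), with adjusted p between 0.1002 and 0.9999 over the alternatives.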

How the results depend on the processing

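Of 973 alternative values for the 49 log2 fold changes of members, 894 kept their direction and side of the threshold, 28 lost and 14 gained a call (8 of the 14 for Tkt in comparisons with recurrent DMAG+STV, whose values chose it), and 37 changed direction, all but those against the glands from values near 0. Against the glands, the 2 members called became 1 with limma voom or with no filter on low counts and 0 with library totals in place of TMM factors (chosen after seeing the data), with the compared groups alone or with a replicate block. All genes called there numbered 2352 with DESeq2, 19 with library totals, 0 with the groups alone and 4 with the replicate block. In the other comparisons DESeq2 called 17 genes (primary STV minus primary untreated), 61 (recurrent DMAG minus primary untreated), 318 (recurrent DMAG+STV minus primary STV), 258 (minus recurrent DMAG), 401 (mean of the arms) and 185 (interaction), with 0, 1, 1, 1, 2 and 1 members, of which 1 in each of the last 4 is Tkt, chosen on those values. The groups alone gave 2 genes in recurrent DMAG+STV minus primary STV. The cause was not tested.

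Direction changed with library totals against the glands for Pgls (0.21), Rpia (0.16) and Rpe (0.29). Tkt in recurrent DMAG minus primary untreated, at -0.0023, became 0.021 with DESeq2 and with RLE factors, 0.0033 with voom, 0.033 with library totals, 0.00798 with no filter, 0.011 without milk, muscle and adipocyte genes, 0.000561 with the groups alone and 0.013 with all 13 libraries. Same-numbered libraries did not deviate together (r from -0.17 to 0.28 over 15 pairs, 3 of them over 0.1). With 2 or 3 libraries in a group this cannot decide whether the numbers pair samples, and the labels leave it open.

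Leaving out 1 library at a time gave 0 to 6 members and 0 to 3381 genes called against the glands, and the log2 fold changes there ran from -1.17 to 0.18 for Taldo1, -0.62 to 0.22 for Pgls, -0.77 to 0.26 for Rpia and -0.28 to 0.14 for Rpe. All 4 were positive only without gland replicate 2. In recurrent DMAG minus primary untreated 0 to 1 genes were called, with Tkt from -0.095 to 0.086 and Rpe from -0.033 to 0.30. In recurrent DMAG+STV minus primary STV 0 to 1 members and 0 to 100 genes were called, with Taldo1 from -0.010 to 0.22, H6pd from -0.22 to 0.051 and Rpe from -0.17 to 0.017. Against recurrent DMAG 0 to 1 members and 0 to 141 genes were called, with H6pd from -0.12 to 0.068, Pgd from -0.043 to 0.29 and Rpe from -0.094 to 0.24. In the mean of the arms 0 to 6 genes were called, with Pgls from -0.0028 to 0.11 and Rpe from -0.053 to 0.11. In the interaction 0 to 1 members and 0 to 77 genes were called. In both comparisons with recurrent DMAG+STV tumors and in the interaction, the member called was Tkt, which was chosen on those values. The highest counts among tumors came without recurrent DMAG+STV replicate 1, except that of recurrent DMAG minus primary untreated, which came without primary untreated replicate 1. Each lone library left in a group was assumed to vary like the other groups.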
